A study of Oncorhynchus mykiss with 18 samples.

Results

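The miR-30 family was followed in rainbow trout (Oncorhynchus mykiss) in 3 kinds of sample, namely blood plasma, epidermal mucus and the water of the tank. The members were the rows of the count table whose name begins with ssa-miR-30 followed by a letter or a hyphen, which gave 5 of 4884 rows and 5 of the 212 known miRNAs (those named after Salmo salar). The 5 were ssa-miR-30a-5p, ssa-miR-30b-5p, ssa-miR-30c-5p, ssa-miR-30d-5p and ssa-miR-30e-5p, written below as miR-30a-5p, miR-30b-5p, miR-30c-5p, miR-30d-5p and miR-30e-5p, so every member was a 5p arm, the strand cut from the 5′ side of the hairpin, and the sum by arm was a 5p sum. No other row held the same counts as a member. The family was chosen by measured values, namely the counts of miR-30b-5p in control and stressed mucus and water, so the values of miR-30b-5p there and between sample types are given as a description with no test. The other members were taken by name. Of these miR-30d-5p was listed beside miR-30b-5p when the family was chosen, with no reason recorded, so its tests may not be independent of that choice.

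Plasma, mucus and water each had 3 control and 3 stressed libraries, 18 in all. Control plasma and mucus came from fish sampled before the stressor and control water from their tank. Stressed samples were taken 1 h after fish had been held in air for 3 min. The experiment was run 3 times. In each run, 1 fish gave the control plasma and mucus, another fish gave those after stress, and the water was drawn from 1 tank before and after the air exposure of the fish left in it. No genotype, age or sex was used here. Euthanasia was by immersion in MS-222 with buffer. Per the study's methods, RNA was extracted with a different kit for each sample type, and water was first passed through a filter. Sample type and extraction thus cannot be told apart.

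MicroRNAs are short RNAs that guide Argonaute proteins to messenger RNAs with a matching site and lower the output of those messages. Members of a family share the seed, the stretch near the 5′ end that finds the target, and differ in the rest of the mature strand. In mammals miR-30 members are found in most tissues, are abundant in kidney, heart and other differentiated epithelial and muscle tissues, and are known as regulators of cell differentiation and autophagy. MicroRNAs also leave cells in vesicles or bound to protein, and are found in many body fluids. Because the mature strands of this family differ by few bases and the alignment allowed 1 mismatch, reads may have been split between members, and the counts of single members are uncertain to that extent.

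Total counts per library ran from 4338151 to 13222298 in plasma, from 1751108 to 23634159 in mucus and from 445067 to 5414071 in water, and counts of known miRNAs from 315428 to 12858162. Known miRNAs made up as little as 3.63% of all counts in 1 mucus library (stressed replicate 1) and up to 97.2% in 1 plasma library. Levels are given as CPM (read counts scaled to a common library size) after trimmed mean of M values (TMM) scaling over the rows that passed the filter on low counts in the 18 libraries, and where noted as CPM of known miRNAs, scaled to the known counts alone. The TMM factors ran from 0.202 to 2.44, so levels and their order depend on the scaling. CPM not scaled by TMM, where named, was taken over the counts of all rows, so it differs by the filter as well. In mucus stressed replicate 2, with a TMM factor of 1.12, the scaled library size was 505207 against 3395934 counts over all rows. Levels, ranges and orders below are on the TMM scale unless another is named. The sign ± gives the SD over the 3 libraries of a group unless another n is named. Since a read covers a whole mature miRNA, levels were not divided by length. The miRNAs of epithelium and skin (miR-203, miR-205, miR-200 and miR-429, with no row for miR-141) summed to between 488 and 8226 CPM in plasma, 63447 and 138722 CPM in mucus and 75052 and 122719 CPM in water. The miRNAs of white blood cells (miR-142, miR-150 and miR-155, with no row for miR-223) summed to between 1647 and 5668 CPM in plasma, 13.9 and 615 CPM in mucus and 414 and 540 CPM in water. In mucus control replicate 1, miR-144 of red blood cells was at 369 CPM and miR-122 of liver at 589 CPM, against at most 58.1 and 4.64 CPM in the other mucus libraries. In mucus control replicate 2 the white blood cell list was at 615 CPM, against at most 145 CPM in the others. The 145 CPM was that of control replicate 1, so its white blood cell list was far below that of plasma. Its miR-144 and miR-122 were within the plasma ranges, which were 332 to 1456 CPM for miR-144 and 173 to 1197 CPM for miR-122. The part of plasma in this library was not tested. The muscle list (miR-1, miR-133, miR-206 and miR-499) had 0 counts in all mucus and water libraries and between 20.4 and 250.0 CPM in plasma. Red blood cell miR-451 had no row. In such extracts fewer cells of a type and less RNA per cell cannot be told apart.

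All 5 members were counted in all 6 plasma libraries, and 4 of the 5 in every library of the series. The exception was miR-30b-5p, which was counted in 11 libraries and was at 0 in 7. In plasma it was the most abundant member by mean level. In control plasma its counts were 13081, 44272 and 25111, and in stressed plasma 15757, 34223 and 19471. In mucus it had 8238, 2313 and 0 counts in control fish and 0 in all 3 stressed fish. In water it had 0 counts in all 3 control samples and 5751, 4501 and 5298 in stressed samples. Its counts were thus at 0 or at 2313 and above, with nothing between.

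**Figure D1:**
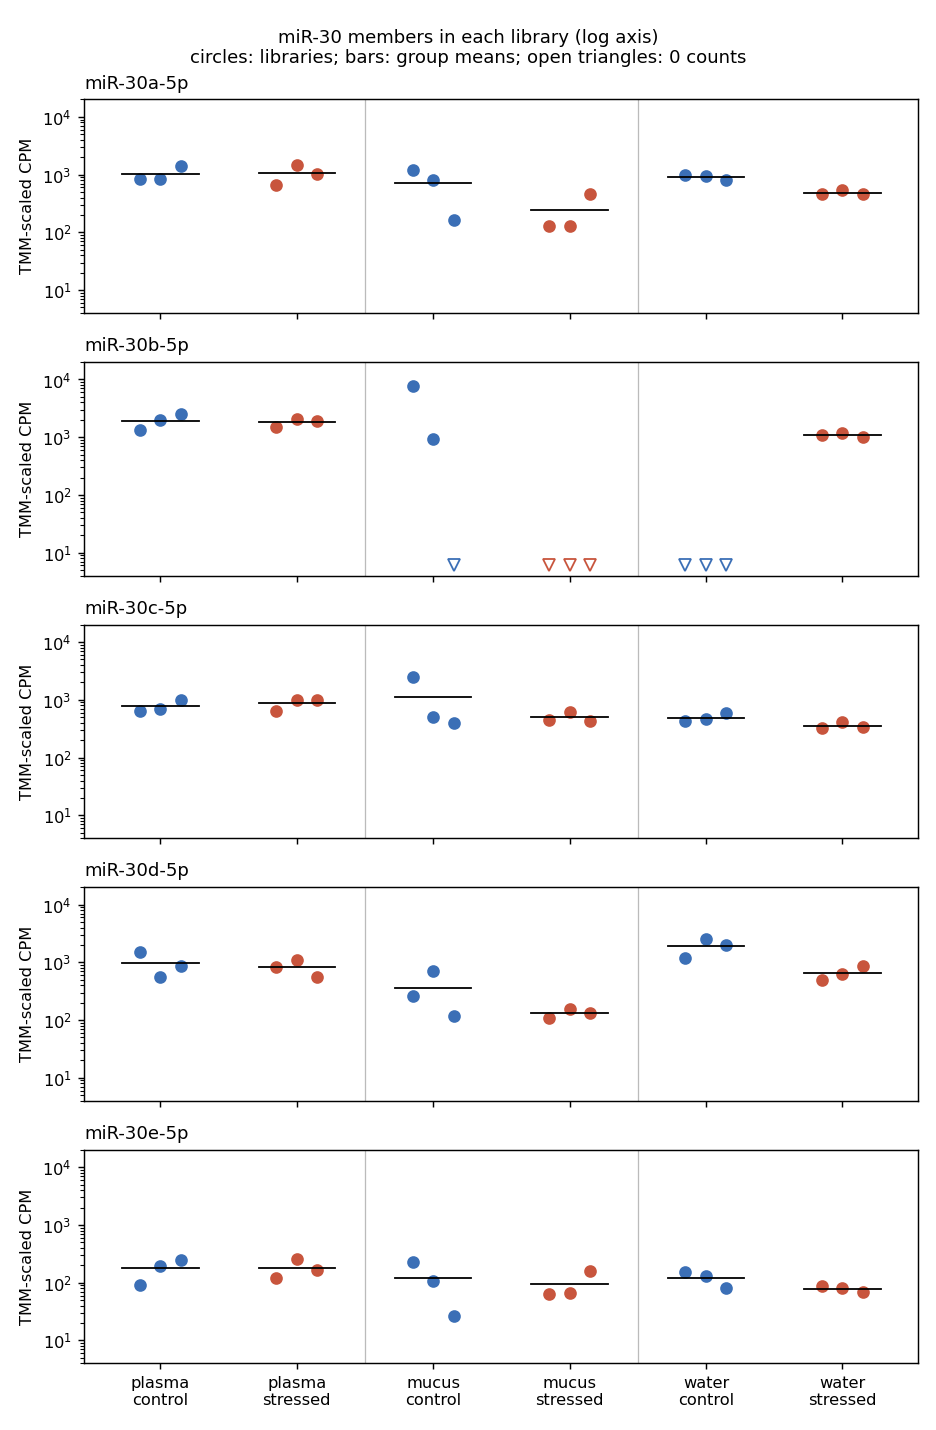
TMM-scaled CPM (log axis) of the 5 members in the 18 libraries, by sample type and treatment, with circles for libraries in replicate order, bars for the means of groups in which all 3 libraries had counts, and open triangles at the foot for libraries with 0 counts, which have no place on a log axis. Only miR-30b-5p has triangles, in 1 control mucus, 3 stressed mucus and 3 control water libraries.

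The scaled level of miR-30b-5p was 1937 ± 601 CPM in plasma of control fish and 1839 ± 304 CPM after stress. In control mucus the libraries had 7794, 914 and 0 CPM. In stressed water the level was 1110 ± 90.7 CPM, and all 3 libraries were below the lowest plasma library at 1326 CPM, though not with TMM taken over all rows. Where it was at 0, the limit that a count of 0 allows (3 counts per library) was between 1.61 and 6.40 CPM, which covers counting error only. Whether the 0 counts come from how reads were assigned among the family members and their precursors cannot be told from the counts, and the bounds that follow rest on these 0 counts. Against a floor of 3 counts over the whole control group, miR-30b-5p was at least 592-fold higher in stressed than in control water. Without 1 control water library the bound ran from 355 to 418, since fewer libraries set the floor. Against the same floor over stressed mucus, it was at least 3274-fold higher in control mucus, and at least 515-fold higher without control replicate 1. That was the mucus library with the highest miR-144 and miR-122. The part of red blood cells or liver in its level was not tested. With CPM not scaled by TMM these bounds were 678 and 16870, and with TMM over all rows 805 and 2082. By RT-qPCR (quantitative PCR) of samples that were not sequenced, the study reported the same directions in water and mucus. Its changes were far smaller than these bounds, and the one in mucus did not pass its significance threshold. They were finite, so the RT-qPCR assay for miR-30b-5p gave a signal in control water and stressed mucus as well, the groups at 0 counts here. That assay paired a forward primer of the miRNA's sequence with a universal reverse primer. Whether it tells miR-30b-5p from the other members was not tested here. Between sequencing and RT-qPCR the study reported a high correlation for miR-30b-5p in water and a weak negative one in mucus. The RT-qPCR values were scaled otherwise, and the cause of the difference was not tested.

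In the libraries where miR-30b-5p was at 0, the other 4 members were counted. Counts of miR-30a-5p in these 7 libraries ran from 64 to 868 and the other 4 members summed to between 459 and 2227. Where miR-30b-5p was counted, it exceeded miR-30a-5p in 11 of 11 libraries, with a ratio between 1.15 and 6.50 and a median of 2.16. In stressed water the ratio was 2.44, 2.23 and 2.16, within the plasma range of 1.40 to 2.31 but for the first. In the control water of the same tanks the ratio could be at most 0.00483, 0.00690 and 0.00752 if 3 counts had been missed. In stressed mucus the limits were 0.0231, 0.0469 and 0.00346, and in mucus control replicate 3 the limit was 0.0283. The ratio is taken within a library, so it is the same under any scaling of libraries. The libraries of control water were less deep, with 315428 to 591733 known counts, than those of stressed water. The limits above cover only counting error at the depth of each library. Whether depth bears on the 0 counts in another way was not tested.

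**Figure D2:**
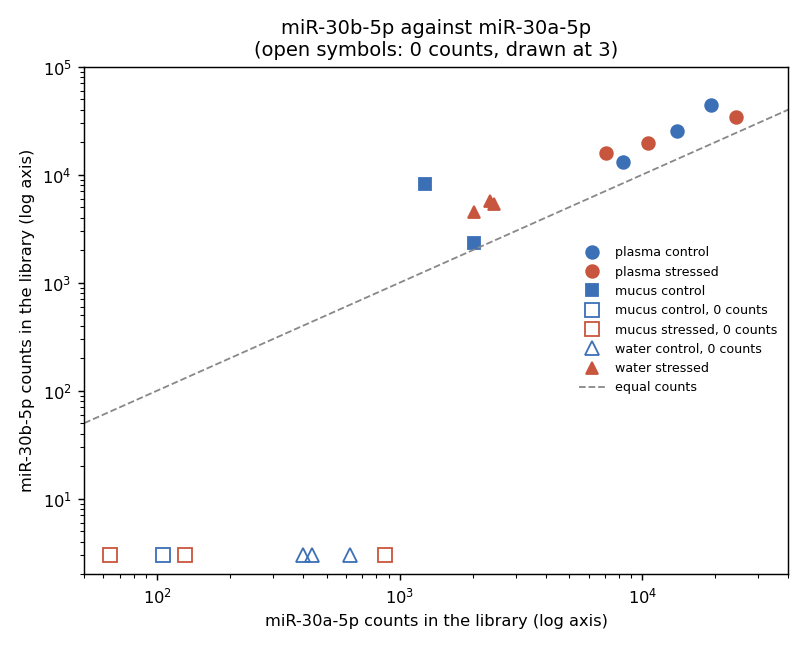
Counts of miR-30b-5p against counts of miR-30a-5p in each of the 18 libraries (both axes log), by sample type (symbol) and treatment (colour), with the dashed line at equal counts and open symbols at 3 for libraries with 0 counts of miR-30b-5p. The 11 filled symbols lie above the line and the 7 open symbols lie at miR-30a-5p counts of 64 to 868.

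Counts of this kind, 0 in some libraries and high in others, were also found among other known miRNAs. Of the known miRNAs that reached 1000 counts in at least 1 library of a sample type, 25 of 75 in mucus (33.3%), 19 of 80 in water (23.8%) and 8 of 109 in plasma (7.34%) had 0 counts in another library of that type. In water, 4 known miRNAs had 0 counts in all control samples and at least 1000 in all stressed samples. They were miR-30b-5p, miR-128-4-5p, miR-27c-3p and miR-27c-5p, of which the 3 outside the family were named after their values had been seen. The reverse was found for no known miRNA, but control water held 315428 to 591733 known counts per library against 3061303 to 4792838 in stressed water, so the same count was harder to reach there.

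The miRNAs whose log2 level ran most like that of miR-30b-5p over the 18 libraries were miR-23b-5p (Pearson r = 0.872), miR-212b-5p (r = 0.795) and miR-128-4-5p (r = 0.770), of 143 known miRNAs outside the family. These are descriptions over libraries that share sample type, fish and depth. The first had 0 counts in 6 libraries, the second in 8 and the third in 9. Counts of miR-23b-5p were 561, 335 and 841 in stressed water and 47, 0 and 0 in control water. In mucus they were 174, 167 and 0 in control fish and 0 in all 3 stressed fish, at 0 in the same 4 mucus libraries as miR-30b-5p. Since miR-23b-5p was picked by its r over these same libraries, the shared 0 counts are part of that choice. Counts of miR-212b-5p were low, at most 161 in a library. Within the family the values of miR-30b-5p ran most like miR-30a-5p (r = 0.556) and least like miR-30d-5p (r = 0.264).

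The member miR-30d-5p was the most abundant of the family in control water and was low in mucus. Its counts in control water were 758, 1186 and 978, or 1188, 2530 and 1990 CPM, and in stressed water 2609, 2333 and 4439, or 505, 622 and 853 CPM. In plasma it had 15111, 12399 and 8525 counts in control fish (979 ± 503 CPM) and 8732, 18278 and 5702 in stressed fish (838 ± 278 CPM). In mucus it had 272, 1786 and 76 counts in control fish, or 257, 706 and 117 CPM, and 112, 78 and 250 in stressed fish, or 110, 154 and 134 CPM. Control replicate 2 was the highest mucus library for miR-30d-5p and the one with the most white blood cell miRNA. The order of its levels by mean was control water, control plasma, stressed plasma, stressed water, control mucus and stressed mucus. Each neighbouring pair in that order overlapped between libraries, and both plasma groups changed places with TMM over all rows and with CPM not scaled by TMM.

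The 3 known miRNAs outside the family most like miR-30d-5p over the 18 libraries were miR-462b-5p (r = 0.885), miR-125a-5p (r = 0.880) and miR-462a-5p (r = 0.871), again as a description. Mature miR-462a-5p and miR-462b-5p belong to a cluster known from teleost fish, where it responds to virus infection and interferon. Counts of miR-462a-5p were highest in plasma, between 273619 and 968220. In mucus it had 37964 counts in control replicate 2 and between 238 and 1529 in the other 5 libraries. The library that was high for miR-30d-5p was thus high for this miRNA as well, but the miRNA was picked by its r over these same libraries. Within the family miR-30d-5p ran most like miR-30a-5p (r = 0.728), and its r with miR-30c-5p was 0.01.

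The mean level of miR-30a-5p was highest in plasma and lowest in stressed mucus. It had 1029 ± 315 CPM in control and 1067 ± 410 CPM in stressed plasma. In control water its counts were 621, 435 and 399 (904 ± 83.1 CPM), and in stressed water 2360, 2019 and 2449 (489 ± 43.5 CPM). In control mucus it had 1268, 2014 and 106 counts, or 1200, 796 and 164 CPM, and in stressed mucus 130, 64 and 868 counts, or 128, 127 and 466 CPM. The lowest control mucus library was thus within the range of the stressed ones.

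The member with the highest mean level in stressed mucus was miR-30c-5p. It had 785 ± 195 CPM in control and 872 ± 206.3 CPM in stressed plasma. In control mucus it had 2647, 1278 and 260 counts, or 2504, 505 and 402 CPM, and in stressed mucus 458, 308 and 814 counts, or 450, 610 and 437 CPM. The highest of these libraries, control replicate 1, was also the highest for miR-30b-5p. In water it had 491 ± 81.1 CPM in control and 355 ± 43.6 CPM in stressed samples. Its libraries in plasma (635 to 1009.6 CPM) lay above all libraries in water (327 to 582 CPM), and they did so on each of the other 3 scales. On the TMM scale 23.1% of all rows tested did not overlap between plasma and water. In the test between them, given below, miR-30c-5p was not called.

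By mean TMM-scaled level miR-30e-5p was the lowest of the members counted in each group, while with CPM not scaled by TMM miR-30d-5p was lower in stressed mucus (56.8 against 60.3 CPM). Its mean level was 178 ± 78.3 CPM in control plasma and 180 ± 67.5 CPM in stressed plasma. It was 121 ± 101 CPM in control and 96.2 ± 53.9 CPM in stressed mucus, and 121.7 ± 38.2 CPM in control and 79.1 ± 9.01 CPM in stressed water. Counts ran down to 17 in mucus control replicate 3 and to 39 in water control replicate 3, so depth limits these values most.

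The make-up of the family, as shares of its 5p counts within a library, does not depend on scaling and is given with no test. In plasma miR-30b-5p held 39.0% ± 5.63 (SD, n = 6) of the 5p counts, miR-30a-5p 21.2% ± 2.73 (SD, n = 6), miR-30d-5p 19.1% ± 8.48 (SD, n = 6), miR-30c-5p 17.1% ± 2.33 (SD, n = 6) and miR-30e-5p 3.63% ± 0.918 (SD, n = 6). The share of miR-30b-5p was 39.3% ± 8.38 in control and 38.7% ± 2.98 in stressed plasma. In stressed water miR-30b-5p held 41.3% ± 3.88, which is within the plasma range of 29.9% to 46.0%. In control water, where it was at 0, miR-30d-5p held 54.4% ± 9.89. In stressed mucus miR-30c-5p held 53.4% ± 14.7, with 36.6% in the lowest of the 3 libraries. With miR-30b-5p left out of the sum, miR-30d-5p held 54.4% ± 9.89 in control and 41.3% ± 7.05 in stressed water, and the libraries overlapped. The corresponding shares of miR-30c-5p were 46.8% ± 19.9 in control and 53.4% ± 14.7 in stressed mucus, against 14.6% ± 2.79 in control and 22.6% ± 2.86 in stressed water.

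**Figure D3:**
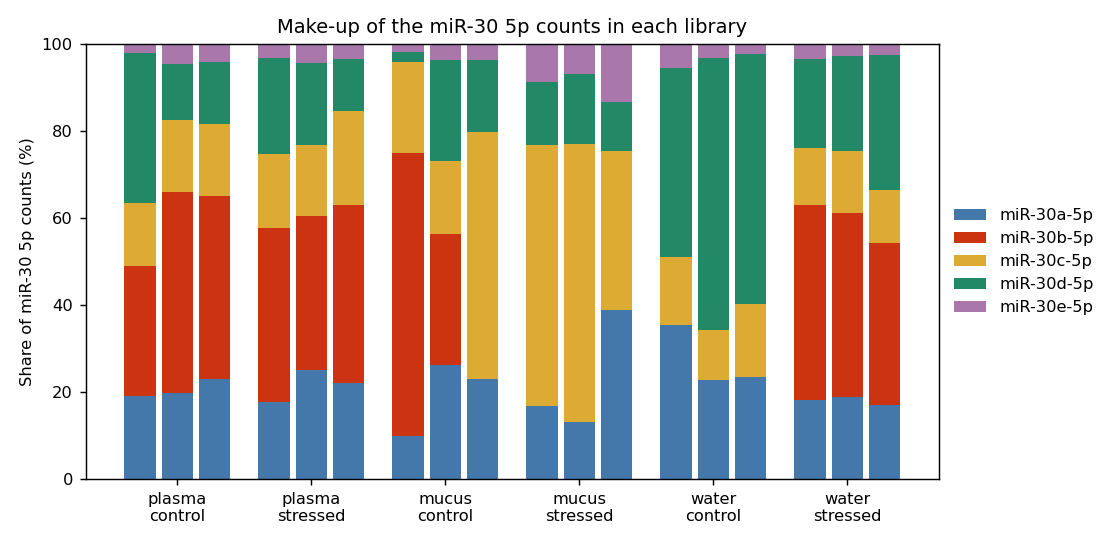
Share of the summed miR-30 5p counts (%) that each member held in each of the 18 libraries, 3 bars per group in replicate order. The share of miR-30b-5p is between 29.9% and 46.0% in plasma and between 37.1% and 44.7% in stressed water, and it is 0 in control water and stressed mucus.

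Summed over the 5p arm, the family took 0.928% ± 0.109 of the known miRNA counts in control plasma and 0.892% ± 0.141 in stressed plasma. In control water it took 0.436% ± 0.126 and in stressed water 0.308% ± 0.0366. In control mucus it took 0.628% ± 0.658, with libraries from 0.0826% to 1.36%, and in stressed mucus 0.115% ± 0.0251. On the TMM scale the sums were 4908 ± 976 CPM in control and 4796 ± 1087 CPM in stressed plasma. They were 3420 ± 659 CPM in control and 2694 ± 184 CPM in stressed water, and 5240 ± 5953 CPM in control and 968 ± 222 CPM in stressed mucus. The mean of control mucus rested on replicate 1 at 11983 CPM, and without it the mean was 1869 CPM. Ordered by mean on this scale, the sums ran from control mucus through control plasma, stressed plasma, control water and stressed water to stressed mucus. The place of control mucus depended on the scale: with TMM over all rows it was 2608 CPM against 4354 CPM in control plasma, with CPM not scaled by TMM 3399 against 7423, and in CPM of known miRNAs 6281 against 9281. The order of the treatments in water also turned with TMM over all rows, at 2262 CPM in control and 2479 CPM in stressed water. That of the treatments in plasma turned with TMM over all rows, at 4354 CPM in control and 4727 CPM in stressed plasma, and with CPM not scaled by TMM, at 7423 and 8237. Stressed mucus was lowest on all 4 scales. On the main scale neighbours in this order overlapped but for stressed mucus, whose highest library at 1197 CPM was below the lowest of stressed water at 2489 CPM.

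Without miR-30b-5p the order of the sample types depended on the scale. On the TMM scale the other 4 members summed to 3420 ± 659 CPM in control water and 2972 ± 615 CPM in control plasma. The order was reversed on the 3 other scales. In CPM of known miRNAs there were 4363 ± 1262 in control water and 5592 ± 481 in control plasma. In stressed water the 4 summed to 1583 ± 184 CPM, below all 3 control water libraries on each of the 4 scales, while with miR-30b-5p included the libraries of both treatments overlapped. On the TMM scale 33.9% of all rows tested in water did not overlap between treatments. None of the 4 was called in water, as given below, and the sum was not tested.

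**Figure D4:**
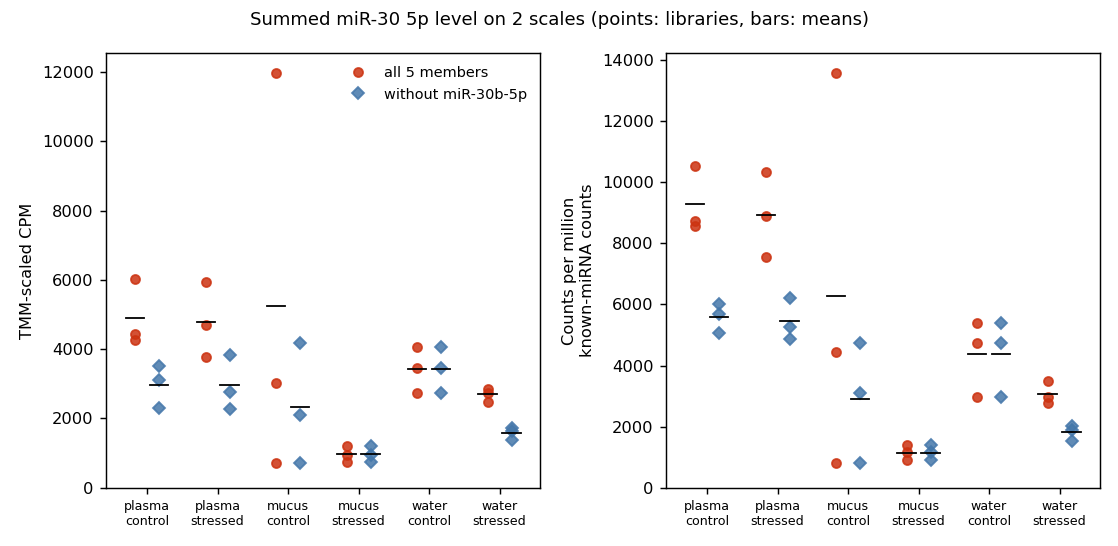
Summed level of the miR-30 5p members in each library (points) and group mean (bars), for all 5 members and without miR-30b-5p, as TMM-scaled CPM (left) and CPM of known miRNAs (right). Control mucus is spread from 709 to 11983 CPM, and the pair of sums coincide in stressed mucus and control water, where miR-30b-5p is at 0.

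Places by mean TMM-scaled level are given out of the known miRNAs with counts in a group, a number that differs between groups. On this measure miR-30b-5p stood at place 28 of 196 in control plasma, 30 of 194 in stressed plasma, 31 of 146 in control mucus and 42 of 158 in stressed water. The highest place of another member was 31 of 135 for miR-30d-5p in control water. In mucus miR-30c-5p stood at place 41 of 146 in control and 43 of 130 in stressed fish. The lowest place of a counted member was 96 of 158, of miR-30e-5p in stressed water.

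To ask whether the family changed with the stressor, each sample type was tested by itself with edgeR's quasi-likelihood test over all rows that passed the filter on low counts. A miRNA was called at p of 0.05 or less, a false discovery rate (FDR, the Benjamini-Hochberg adjusted p over all rows tested) under 0.1 and a log2 fold change beyond 2 in either direction. In plasma no member was called of 5 tested, where 0 of all 365 rows were called (0%). None of the 5 had an unadjusted p under 0.05 in edgeR, and DESeq2 called 0 of the 5. Of all rows 18 of 365 had an unadjusted p under 0.05 in edgeR, and DESeq2 called 10 of 4280. The log2 fold changes of stressed against control plasma were 0.04 for miR-30a-5p (SE 0.47), -0.12 for miR-30b-5p (SE 0.42), 0.12 for miR-30c-5p (SE 0.42), -0.20 for miR-30d-5p (SE 0.50) and -0.04 for miR-30e-5p (SE 0.64), with edgeR adjusted p of 0.993 to 0.994. Their median of -0.04 lay beside a median of -0.08 over all rows tested. In plasma the libraries of both treatments overlapped for all 5, and of all rows tested 8.22% did not overlap. Directions in plasma turned for all but miR-30c-5p under some scaling, filter, block or left-out library.

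In mucus 4 members passed the filter and miR-30b-5p did not, since it was counted in 2 of the 6 libraries. None of the 4 was called, where 1 of all 149 rows was called (0.671%). None had an unadjusted p under 0.05 in edgeR, and DESeq2 called 0 of the 4. Of all rows 4 of 149 had an unadjusted p under 0.05 in edgeR, and DESeq2 called 14 of 596. The log2 fold changes of stressed against control mucus were -1.24 for miR-30a-5p (SE 0.96), -0.64 for miR-30c-5p (SE 0.82), -1.23 for miR-30d-5p (SE 0.93) and 0.09 for miR-30e-5p (SE 0.89), with edgeR adjusted p of 0.772 to 0.994. Leaving out control replicate 1, the mucus library with the highest miR-144 and miR-122, turned miR-30c-5p to 0.17. With DESeq2's size factors miR-30e-5p turned to -0.20. The ranges of control and stressed libraries overlapped for all 4, and of all rows tested 12.8% did not overlap.

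In water all 5 members passed the filter, and with the tank as a block none of the 4 others was called, where 3 of all 165 rows were called (1.82%). All 4 had a lower TMM-scaled level in the stressed sample in 3 of 3 tanks, while miR-30c-5p did so in 2 of 3 with TMM over all rows and with CPM not scaled by TMM, and miR-30e-5p in 2 of 3 with TMM over all rows. The share of all rows lower in 3 of 3 tanks is not given here, so whether this count is unusual cannot be told. The log2 fold change was -1.50 for miR-30d-5p (SE 0.28, unadjusted p = 0.0133, edgeR adjusted p = 0.169) and -0.90 for miR-30a-5p (SE 0.20, unadjusted p = 0.0208, edgeR adjusted p = 0.225). It was -0.47 for miR-30c-5p (SE 0.24) and -0.58 for miR-30e-5p (SE 0.26), with edgeR adjusted p of 0.447 and 0.392. DESeq2 and the study's edgeR test each called 0 of the 4. Of all rows DESeq2 called 28 of 548 and the study's edgeR test 15 of 165. In the main edgeR test 28 of the 165 rows had an unadjusted p under 0.05. Control and stressed libraries did not overlap for miR-30a-5p, miR-30c-5p and miR-30d-5p, and of all rows tested in water 33.9% did not overlap. On the 3 other scales miR-30a-5p stayed apart on each, miR-30d-5p on all but TMM over all rows, and miR-30c-5p on none. The median of the 4 was -0.74, beside 0.39 over all rows tested. Unscaled counts of the same members were higher in stressed water, whose libraries held more counts in total. With no block the adjusted p of miR-30a-5p and miR-30d-5p were 0.0519 and 0.0679 (edgeR), while the fold changes stayed within the fold limit of 2 on the log2 scale.

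Whether the change with the stressor differed between sample types was tested for the same 4 members as an interaction in a fit over all 18 libraries. None of the 4 was called, with edgeR adjusted p from 0.757 to 1.000. Few rows were called at all. Of 346 rows tested, 5 were called in plasma minus mucus, 1 in plasma minus water and 3 in mucus minus water. The rows called in the first and the last of these include miR-30b-5p, which is not reported as a test because its counts chose the family.

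Each sample type had its own RNA extraction, so the contrasts that follow hold differences of extraction as well. Between sample types, miR-30d-5p was the only one of the 4 tested members that was called. This member was listed when the family was chosen, so its tests may not be independent of that choice. It was higher in plasma than in mucus by 2.05 on the log2 scale (SE 0.55, edgeR adjusted p = 0.00990), where 51.2% of the 346 rows tested were called (177 rows, and 90 with the replicate as a block) and 32.9% were called higher in plasma. It was lower in mucus than in water, with a log2 fold change of -2.36 (SE 0.56, edgeR adjusted p = 0.0197), where 14.7% of the rows were called (51 rows, and 21 with the block) and 7.23% were called lower in mucus. Over all rows tested the median log2 fold change was 1.98 in plasma against mucus, close to that of miR-30d-5p, and 0 in mucus against water. With the block both calls of miR-30d-5p were kept, at 2.20 (edgeR adjusted p = 0.0309) and -2.47 (edgeR adjusted p = 0.0747). The call against mucus is close to the fold limit, and it was lost when plasma control replicate 1 (1.98) or plasma stressed replicate 2 (1.94) was left out. DESeq2's Wald test called neither (adjusted p = 0.297 and 0.420), and the call against water was lost when any of 10 of the 18 libraries was left out (edgeR adjusted p of 0.104 to 0.165, fold changes from -2.50 to -1.99), namely every mucus library but control replicate 2 and every water library but stressed replicate 1. With DESeq2's size factors the fold change against water was -1.97, under the limit. Libraries of plasma and mucus overlapped for miR-30d-5p through mucus control replicate 2, and without it the fold change of plasma against mucus was 2.74 (edgeR adjusted p = 0.00825). On the TMM scale no member stood apart between plasma and mucus, where 20.5% of all rows did.

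The other tested members were not called between sample types. Plasma against mucus, miR-30a-5p was higher by 1.33 on the log2 scale (SE 0.57, edgeR adjusted p = 0.0702), which passed the FDR but not the fold limit. It passed both without mucus stressed replicate 3 (2.02) or water control replicate 3 (2.09) and when known miRNAs alone were tested (2.11). The values of miR-30c-5p and miR-30e-5p were 0.14 (SE 0.52, edgeR adjusted p = 0.911) and 0.73 (SE 0.61, edgeR adjusted p = 0.337). The median of the 4 was 1.03, beside 1.98 over all rows tested.

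Plasma against water, no member was called of the 4, where 43.9% of the 346 rows were called (152 rows, and 58 with the block). None had an unadjusted p under 0.05 in edgeR, and DESeq2 called 0 of the 4. Of all rows 164 of 346 had an unadjusted p under 0.05 in edgeR, and DESeq2 called 97 of 4884. The log2 fold changes were 0.66 for miR-30a-5p (SE 0.56, edgeR adjusted p = 0.385), 0.99 for miR-30c-5p (SE 0.53, edgeR adjusted p = 0.147), -0.31 for miR-30d-5p (SE 0.53, edgeR adjusted p = 0.704) and 0.87 for miR-30e-5p (SE 0.61, edgeR adjusted p = 0.281). The value of miR-30d-5p turned to 0.32 with DESeq2's size factors. On the TMM scale the libraries of plasma and water did not overlap for miR-30c-5p, and of all rows tested 23.1% did not overlap. Those of miR-30a-5p were apart with CPM not scaled by TMM and in CPM of known miRNAs, and those of miR-30e-5p in the latter. The counts of miR-30b-5p in water were among the values that chose the family, so its separation is a description only. Its libraries were apart on the TMM scale and overlapped with TMM over all rows.

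Mucus against water, the log2 fold changes of the 3 members not called were -0.68 for miR-30a-5p (SE 0.56), 0.85 for miR-30c-5p (SE 0.52) and 0.14 for miR-30e-5p (SE 0.61), with edgeR adjusted p of 0.359 to 1.000. On the TMM scale the libraries of mucus and water overlapped for every member, and of all rows tested 6.94% did not overlap. Among all rows called in mucus against water 26 were higher and 25 lower, and with DESeq2's size factors 38 were higher and 24 lower. The median over all rows tested was 1.98 in plasma against mucus and 1.85 in plasma against water, and with DESeq2's size factors it was 2.28 and 2.33.

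**Figure D5:**
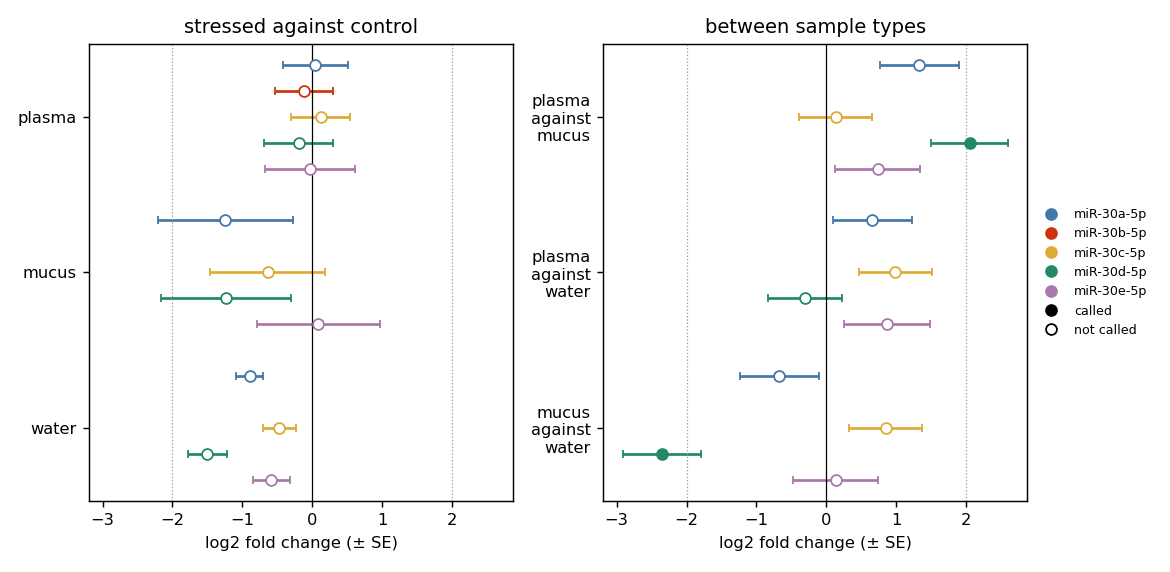
Log2 fold changes (edgeR) of the tested members for stressed against control samples (left) and between sample types (right). Bars are SE derived from the F statistic of the test, filled circles are called values and open circles are values not called. Dotted lines are at the fold limit of 2. Only miR-30d-5p has filled circles, at 2.05 for plasma against mucus and -2.36 for mucus against water, and miR-30b-5p is drawn for plasma alone. Since miR-30d-5p was listed when the family was chosen, these calls may not be independent of that choice.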

How the data were processed

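Small RNA libraries of 18 samples were sequenced. Per the submitters' processing notes and the study's methods, the authors trimmed reads with cutadapt 2.10 and ran miARma-Seq, which aligned with Bowtie 1.1.1 (1 mismatch, best alignment) to the trout genome and counted with miRDeep2 by Salmo salar names. Counts of a mature miRNA from several precursors were averaged, so the deposited table holds estimated counts with no normalization. All values were whole, and rounding changed none. A total can exceed the reads. The authors' result tables (fold changes, p-values, FDR) were not used. Sequences and coordinates of the members were not used here.

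Samples were grouped by their labels. Counts were tested in edgeR 4.0.16 (R 4.3.3; TMM, filterByExpr, glmQLFit, glmQLFTest, Benjamini-Hochberg over all rows), by sample type as in the study, and over all 18 libraries between sample types. Thresholds and the pairing of water by tank were the study's. The edgeR test gives no SE, so the SE of a log2 fold change was its absolute value divided by the square root of the test's F statistic. DESeq2 1.42.0, other scalings, filters, blocks and left-out libraries were alternatives. Dispersions were first fitted with the robust option and levels first scaled by TMM over all rows. Both settings were changed after their results had been seen, to the plain fit and to TMM over the filtered rows, so as to follow the processing of an earlier analysis of these data. The first settings are reported as alternatives chosen after seeing the data. The test was also run on simulated counts. Their dispersion (spread between libraries) was below that of the main fits and their fold changes were larger than those of the tested members. That run therefore does not check the test at the spread and fold changes found here. Correlations used log2 CPM with a prior count of 2. Named were all family rows, their 5p sum, and for miR-30b-5p and miR-30d-5p the 3 known miRNAs with the highest r. The members and lists were chosen with earlier results of these data known.

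Pairing was checked by the correlation of deviations from group means. Control and stressed water of a tank had r of 0.17, 0.17 and 0.08, and each correlated best with its own number. In plasma r was -0.10, -0.02 and -0.17 and in mucus -0.21, -0.14 and -0.19. Between sample types the numbers mark the same fish or tank, and r ran from -0.26 to 0.21. No libraries of a group agreed within sampling noise. Precision is limited by 3 libraries per group and, for low counts, by depth, and p-values measure the spread between these samples.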

Additional observations from a re-analysis of the deposited data

How the results depend on the processing

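No member was called for the stressor under any alternative run (14 per sample type), with miR-30b-5p in mucus and water left out of this count. In water miR-30b-5p was fitted with the other rows, and its test is not reported because its counts chose the family. Members called in plasma against mucus (1) became 0 with no filter, with DESeq2's Wald test and with identical rows taken once, 2 with known miRNAs only, and 0 to 2 with 1 library left out. In mucus against water (1) they became 0 with DESeq2's size factors, with no filter and with DESeq2's Wald test, and 0 to 1 with 1 library left out.

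Rows called in all, beside the main counts in the text, were as follows. With no filter they were 21 in plasma, 0 in mucus, 0 in water, 57 in plasma against mucus, 31 in plasma against water and 28 in mucus against water. With DESeq2's Wald test they were 10 of 4280, 14 of 596 and 28 of 548 for the stressor and 97 of 4884 in plasma against water. With known miRNAs only, which gives fewer rows to test, they were 1 in plasma, 5 in water and 92, 76 and 32 between sample types, the last as 11 higher and 21 lower. The study's edgeR test called 1, 2 and 15 for the stressor. With 1 library left out they ran from 0 to 1 in plasma, 0 to 3 in mucus and 0 to 0 in water, and from 120 to 207, 83 to 168 and 14 to 39 between sample types. The robust fit, also run first and replaced after its results had been seen, called 0 in plasma, 0 in mucus, 3 in water and 177, 150 and 44 between sample types, and kept both calls of miR-30d-5p (edgeR adjusted p = 0.0106 and 0.0237). The cause was not tested.

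With the replicate block the rows called were 0 in mucus for the stressor and 90, 58 and 21 between sample types, and with no replicate block 14 in water. With the replicate block, stressed against control plasma turned to -0.012 for miR-30a-5p and 0.038 for miR-30e-5p. No call of a member changed with the block. Between control and stressed samples no plasma or mucus library correlated best with its own number. Between sample types 4 of 18 pairs did, namely control plasma with mucus replicates 1 and 2, stressed plasma with mucus replicate 3 and control plasma with water replicate 3.

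Uncalled log2 fold changes near 0 turned sign. In stressed against control plasma, miR-30b-5p was 0.030 with no filter and 0.088 with known miRNAs only, miR-30d-5p 0.026 with no filter, and miR-30e-5p 0.059 with DESeq2's size factors, 0.059 with its Wald test, 0.14 with no filter and 0.18 with known miRNAs only. With 1 library left out they ran from -0.28 to 0.39 for miR-30a-5p, -0.31 to 0.14 for miR-30b-5p, -0.54 to 0.28 for miR-30d-5p and -0.38 to 0.32 for miR-30e-5p. In mucus, miR-30e-5p was -0.20 with DESeq2's size factors, -0.54 with no filter, -0.23 with the Wald test and -0.059 with known miRNAs only, and left-out libraries gave -0.88 to 0.55, and -1.67 to 0.17 for miR-30c-5p. In plasma against water, miR-30d-5p was 0.32 with DESeq2's size factors, 0.32 with the Wald test and 0.13 with known miRNAs only, and -0.46 to 0.37 with 1 library left out. In mucus against water, miR-30e-5p was -0.15 with no filter, -0.18 with known miRNAs only and -0.0096 with identical rows once, and -0.16 to 0.34 with 1 library left out.

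The summed 5p level was 7423 (control plasma), 8237 (stressed plasma) and 482 (stressed mucus) as CPM without TMM. In CPM of known miRNAs it was 9281 and 8921 in plasma and 4363 and 3082 in water. With TMM over all rows, the scaling run first and replaced after its results had been seen, it was 2262 in control and 2479 in stressed water, which turns their order. Left-out libraries gave 1869 to 7506 CPM in control mucus.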
